A study of Homo sapiens with 8 samples.

Results

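The zinc finger genes of human chromosome 19 were examined among the DNA recovered with 3 biotinylated RNA oligos. A member was any chromosome 19 region in the 6 deposited lists whose overlapped gene names include ZNF followed by digits and an optional letter. There were 850 such regions among 327994 regions of the whole series, and 10539 regions of other overlapped genes on chromosome 19 served for comparison. The DNA was genomic DNA of H1 cells, an established human embryonic stem cell line, freed of RNA and sonicated to 200 to 300 bp. The oligo groups were MEG3 TFR1, then MEG3 TFR2, then GATA6-AS TFR1, and values of all 3 are given in this order. In each, 6 to 7 µg of this DNA was kept with 20 pmol of that oligo at 37 °C for 1 h, with KCl at 50 mM and MgCl2 at 5 mM in the buffer. MEG3 is a maternally expressed long noncoding RNA and GATA6-AS a transcript antisense to GATA6. The no oligo group was handled alike without an oligo, and each of the 4 groups had 2 libraries from independent experiments. All groups thus share one naked DNA of one cell line, without chromatin. For each oligo a captured list holds regions with more signal with the oligo than without it, and a control list holds regions with more signal without the oligo. The lists carry 1 log2 ratio per region, oligo over no oligo, as computed by the authors, and no value per library, so neither the depth nor the agreement of replicate libraries is known. No test between groups was therefore possible, and every interval below covers counting error only, over regions or genes that are not replicates. The no oligo libraries serve in all 3 comparisons, so values of the 3 oligos are set side by side and are not independent of each other.

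Most of these genes encode C2H2 zinc finger proteins, in which a tandem array of fingers reads DNA. Many also carry a KRAB domain, which recruits the corepressor TRIM28 and, through it, the histone methyltransferase SETDB1, and in embryonic stem cells such proteins are known for silencing transposable elements. The family grew by tandem duplication, and chromosome 19 holds its largest clusters of near-identical copies. How the authors treated reads that fit several copies is not given in the sources used here, so the copy to which a region belongs is uncertain within a cluster. In the RefSeq gene table of GRCh38.p14, 263 ZNF genes lie on chromosome 19, 246 of them protein-coding. Of these 263 genes, 197 carried the name of at least 1 region and 182 that of at least 1 captured region, while 55 protein-coding members were named for no region in any list.

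The authors' names and the gene positions differ in part. Of the 850 ZNF-named regions, 688 (80.9%) overlap the RefSeq gene of that name. Conversely, 1068 regions overlap a RefSeq ZNF gene and 380 of them (35.6%) do not carry its name. An example is ZNF114, a zinc finger gene outside the clusters, for which a captured region named by the authors lies at chromosome 19, 48197051 to 48197650, well outside the RefSeq gene at 48270081 to 48287608. Counts of genes below follow the authors' names unless positions are stated, and a gene that no region is named for can still be overlapped by one.

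Captured DNA at ZNF promoters is shown first for the genes with the highest values. Each sequence is the 250 bases before a RefSeq start on GRCh38.p14, read 5′ to 3′ along the gene, and capitals mark the longest unbroken run of purines on either strand, since the oligos are named as triplex-forming regions and such RNA pairs with purine runs of duplex DNA. ZNF71 is shown because the DNA just before its start carried the highest MEG3 TFR1 captured value of any ZNF gene. Among ZNF genes with a listed start and a region overlapping this window, ZNF358 had the next highest MEG3 TFR1 value. ZNF599 is shown for MEG3 TFR2, and ZNF432 and ZNF699 had the highest GATA6-AS TFR1 values of regions overlapping the window. The GATA6-AS TFR1 region before the ZNF71 start, of 2.92 at 56594601 to 56595050, is higher but ends just short of the window. A region of ZNF528 ranked first with MEG3 TFR2 but covered only 2 bp of the window, and its promoter is not printed.
ZNF71 (chr19:56595052-56595301, plus strand): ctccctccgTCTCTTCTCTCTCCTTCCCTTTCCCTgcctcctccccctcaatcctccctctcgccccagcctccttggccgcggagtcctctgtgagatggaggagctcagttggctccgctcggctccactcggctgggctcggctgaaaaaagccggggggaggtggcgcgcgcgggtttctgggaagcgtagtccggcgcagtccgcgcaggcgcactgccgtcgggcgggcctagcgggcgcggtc
ZNF358 (chr19:7515853-7516102, plus strand): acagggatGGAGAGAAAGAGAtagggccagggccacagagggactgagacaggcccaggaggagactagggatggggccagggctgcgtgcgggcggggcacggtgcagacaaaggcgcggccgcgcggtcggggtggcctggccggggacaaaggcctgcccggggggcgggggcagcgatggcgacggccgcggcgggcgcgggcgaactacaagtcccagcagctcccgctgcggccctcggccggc
ZNF599 (chr19:34773216-34773465, minus strand): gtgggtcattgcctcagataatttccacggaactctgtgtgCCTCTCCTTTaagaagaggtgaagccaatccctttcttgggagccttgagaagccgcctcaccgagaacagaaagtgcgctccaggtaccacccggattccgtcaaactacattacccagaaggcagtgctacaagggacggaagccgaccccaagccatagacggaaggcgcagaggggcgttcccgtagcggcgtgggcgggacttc
ZNF432 (chr19:52048641-52048890, minus strand): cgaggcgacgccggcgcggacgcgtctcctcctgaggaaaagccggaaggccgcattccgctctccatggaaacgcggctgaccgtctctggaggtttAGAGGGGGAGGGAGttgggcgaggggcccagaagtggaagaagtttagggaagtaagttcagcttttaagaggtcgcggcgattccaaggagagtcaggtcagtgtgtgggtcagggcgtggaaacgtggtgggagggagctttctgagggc
ZNF699 (chr19:9309839-9310088, minus strand): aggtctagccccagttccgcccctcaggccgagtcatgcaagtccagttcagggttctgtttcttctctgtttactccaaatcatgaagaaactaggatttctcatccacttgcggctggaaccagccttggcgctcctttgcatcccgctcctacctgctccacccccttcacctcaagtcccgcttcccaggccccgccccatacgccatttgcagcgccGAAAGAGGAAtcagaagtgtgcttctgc

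The ZNF71 window holds a pyrimidine run of 26 bases as printed, hence purines on the other strand, and it is the longest run among the 268 ZNF promoters of the chromosome. All 26 bases lie inside the MEG3 TFR1 region at 56594451 to 56595150, which covers the first 99 bp of the window and has a log2 ratio of 3.29, a 9.78-fold ratio of oligo over no oligo. The rest of this 700 bp region lies before the window, and its sequence was not read. The MEG3 TFR2 region (56594501 to 56594850) and the GATA6-AS TFR1 region (56594601 to 56595050) at this locus end before the run, which starts at 56595061. A part of the run in the capture was not tested. At the ZNF358 promoter the run of 13 bases also lies inside the captured region, at 7515401 to 7515950 with a log2 ratio of 2.06. The ZNF699 run of 10 bases lies inside a region at 9309851 to 9310400 with a GATA6-AS TFR1 log2 ratio of 2.31. The ZNF599 run of 10 bases and the ZNF432 run of 14 bases lie outside their regions, which reach log2 ratios of 1.58 at 34773051 to 34773350 and 2.33 at 52048401 to 52048700. Long runs were less frequent at ZNF promoters than elsewhere. A run of at least 15 bases occurred in 19 of 268 ZNF promoters (7.09%), in 18.98% of 1649 other promoters of chromosome 19 and in 17.5% of all 35116 promoters. Among promoters that overlap a MEG3 TFR1 captured region, 3 of 9 ZNF promoters and 37.3% of 201 others had such a run. With MEG3 TFR2 it was 2 of 4 ZNF promoters against 30.0% of 120 others, and with GATA6-AS TFR1 8 of 51 ZNF promoters (15.7%) against 23.8% of 593 others. On either strand, the letters GAGAGAGA were found in 3 ZNF promoters (1.12%) against 2.97% of other chromosome 19 promoters and 2.75% of all promoters, and the letters GGAGGAGG, which can overlap the former, in 17 (6.34%) against 11.8% and 9.45%. ZNF71 holds both.

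The first comparison asks how the ZNF genes fare among regions recovered with an oligo and without one. ZNF-named regions made up a small share of captured and a larger share of control regions with every oligo. With MEG3 TFR1 they were 222 of 2859 gene-overlapping captured regions of chromosome 19 (7.76%, 95% Wilson interval 6.84 to 8.80%) and 50 of 246 control regions (20.3%, 15.8 to 25.8%). With MEG3 TFR2 they were 147 of 2145 captured regions (6.85%, 5.86 to 8.001%) and 36 of 214 control regions (16.8%, 12.4 to 22.4%). With GATA6-AS TFR1 they were 270 of 5295 captured regions (5.10%, 4.54 to 5.72%) and 125 of 630 control regions (19.8%, 16.9 to 23.1%). The captured and control intervals do not overlap within any oligo. The control share exceeded the captured share 2.62, 2.45 and 3.89 times for the 3 oligos in the order above. Per control region there were 4.44, 4.08 and 2.16 captured regions of ZNF genes, against 13.5, 11.2 and 9.95 of the other genes.

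Protein-coding ZNF genes span 7.04 Mb, which is 22.2% of the 31.7 Mb of protein-coding gene DNA on the chromosome, and their median length is 23.2 kb against 12.8 kb for the other 1205 protein-coding genes. By name, 20.3%, 16.8% and 19.8% of the gene-overlapping control regions were ZNF regions, near this share of the gene DNA. The measures are not alike, since the authors' names and the RefSeq positions differ in part. Per Mb of ZNF gene, counted by region midpoint, there were 36.6 MEG3 TFR1 captured regions (95% Poisson interval 32.3 to 41.4), 28.6 MEG3 TFR2 regions (24.7 to 32.8) and 44.0 GATA6-AS TFR1 regions (39.3 to 49.2). The other protein-coding genes held 134, 101 and 235 per Mb, so that the ZNF density was 0.273, 0.284 and 0.188 times theirs. Control regions had densities of 6.53, 4.55 and 18.8 per Mb in ZNF genes against 6.53, 6.12 and 18.5 in the others, ratios of 1.00, 0.742 and 1.01. Where only log2 sizes of 1.5 or more were kept, these control ratios were 1.64, 0.990 and 1.81, and the captured ratios 0.360, 0.381 and 0.188.

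**Figure D1:**
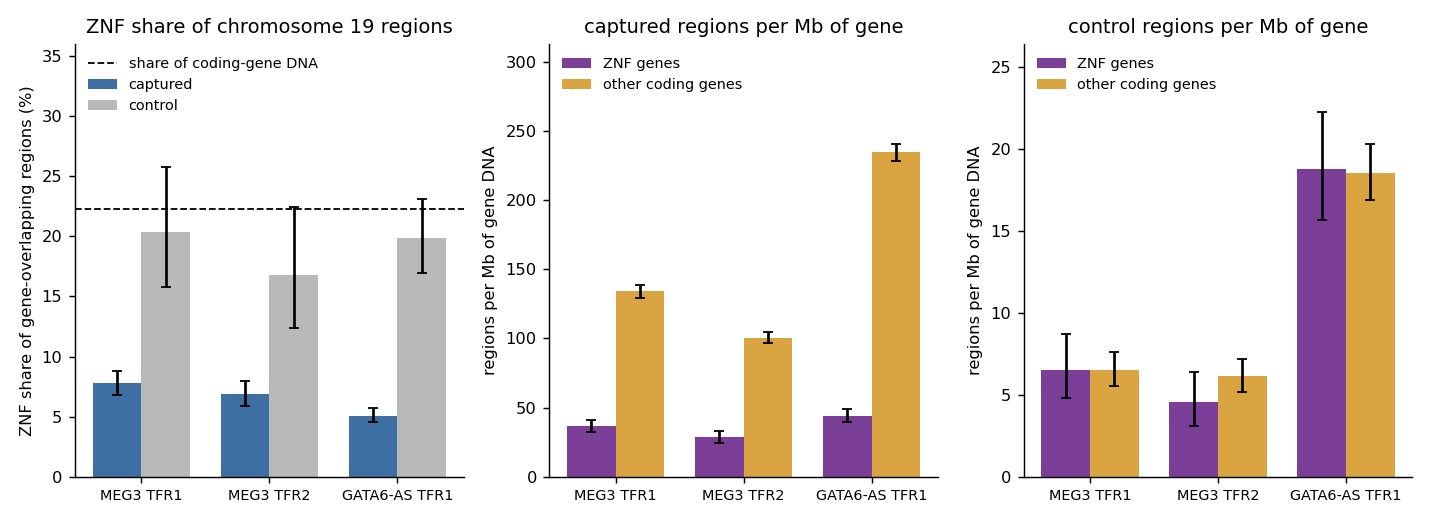
Left: share of chromosome 19 gene-overlapping regions named for a ZNF gene (%), captured in blue and control in grey, with 95% Wilson intervals, and the ZNF share of protein-coding gene DNA (22.2%) as a dashed line. Middle and right: captured and control regions per Mb of gene DNA for ZNF and other protein-coding genes with 95% Poisson intervals. The captured shares of 5.10 to 7.76% lie far below the line, the control shares of 16.8 to 20.3% near it.

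Counted by gene, fewer ZNF genes than other genes were named for a captured region. With MEG3 TFR1, 94 of 246 protein-coding ZNF genes (38.2%) had one, against 43.4% of all 1451 protein-coding genes of the chromosome and 44.5% of the 1205 others. With MEG3 TFR2 it was 84 genes (34.1%) against 40.4% of all and 41.7% of the others, and with GATA6-AS TFR1 112 genes (45.5%) against 57.1% and 59.4%. By RefSeq position rather than by name the shares were higher and further apart, at 50.4%, 50.0% and 60.6% of ZNF genes against 75.1%, 67.6% and 85.8% of the others, with 70.9%, 64.6% and 81.5% of all protein-coding genes. Control regions named 44 ZNF genes (17.9%) with MEG3 TFR1 against 12% of all genes, 32 (13.0%) with MEG3 TFR2 against 10.8%, and 73 (29.7%) with GATA6-AS TFR1 against 22.5%. By gene position with 5 kb to each side, the MEG3 TFR2 control order turned, with 18.3% of ZNF genes and 19.1% of the others.

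The median captured value of ZNF regions lay slightly above that of other genes, with intervals that stand apart for MEG3 TFR2 alone. Captured values with MEG3 TFR1 ran from 0.70 to 3.29 with a median of 1.51 (95% interval 1.42 to 1.62, n = 222), against a median of 1.405 (1.37 to 1.43) over 2637 regions of other genes. With MEG3 TFR2 they ran from 0.87 to 3.19 with a median of 1.58 (1.5025 to 1.71, n = 147) against 1.42 (1.40 to 1.44) over 1998 regions. With GATA6-AS TFR1 they ran from 0.62 to 3.35 with a median of 1.35 (1.29 to 1.41, n = 270) against 1.29 (1.28 to 1.31) over 5025 regions. The highest ZNF values stayed well below those of other genes, whose highest were 4.57, 4.07 and 4.67. A ratio of at least 4-fold was reached by 48 ZNF captured regions with MEG3 TFR1 (21.6%, against 15.1% of all gene-overlapping captured regions of the chromosome), by 38 with MEG3 TFR2 (25.9% against 14.2%) and by 39 with GATA6-AS TFR1 (14.4% against 10.7%). Among regions of at most 350 bp the captured medians were 1.61, 1.61 and 1.44 for ZNF genes against 1.58, 1.51 and 1.51 for the others, so the order turned for GATA6-AS TFR1, where ZNF regions had a median width of 400 bp and the others 550 bp.

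Control regions of ZNF genes had larger ratios in favour of the no oligo libraries with MEG3 TFR1 and also GATA6-AS TFR1. The MEG3 TFR1 control median was -1.72 (95% interval -1.96 to -1.50, n = 50) against -1.418 (-1.49 to -1.35) for other genes. For GATA6-AS TFR1 it was -1.66 (-1.74 to -1.57, n = 125) against -1.39 (-1.423 to -1.33). For MEG3 TFR2 it was -1.51 (-1.67 to -1.32, n = 36) against -1.39 (-1.46 to -1.31), intervals that overlap. The 4-fold mark was passed by 17 ZNF control regions with MEG3 TFR1 (34.0%, against 16.3% of all gene-overlapping control regions), 4 with MEG3 TFR2 (11.1% against 10.3%) and 29 with GATA6-AS TFR1 (23.2% against 14.4%). The MEG3 TFR2 share is close to its background. Where only sizes of 1.5 or more were kept, the control medians were -1.75 against -1.85 with MEG3 TFR2 and -1.82 against -1.83 with GATA6-AS TFR1, which turns the order for both.

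**Figure D2:**
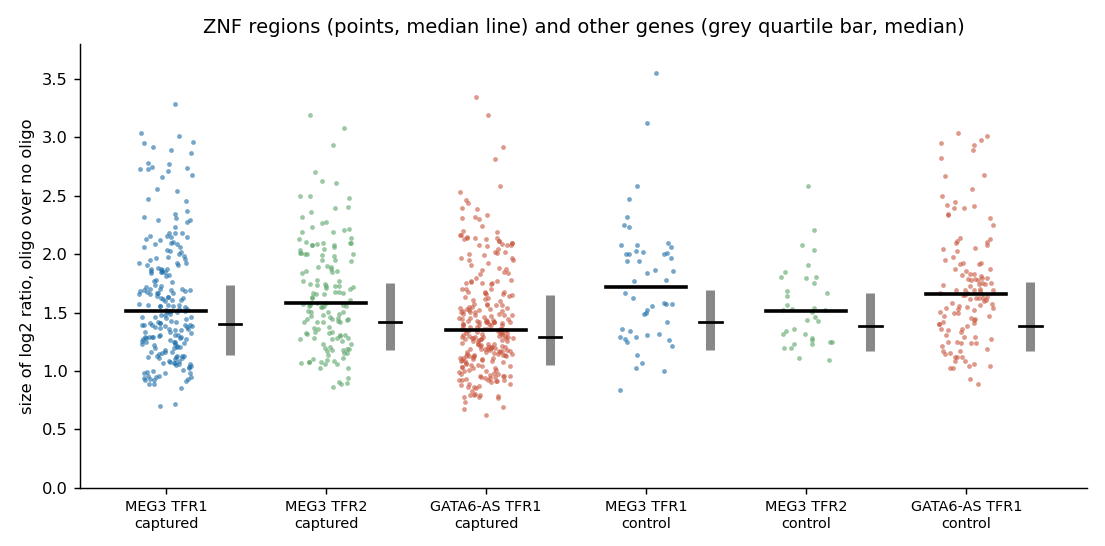
Size of the authors' log2 ratio for each ZNF-named region (points, with the median as a black line) in the 6 lists, and for regions of other chromosome 19 genes the range from lower to upper quartile (grey bar) with the median. The horizontal spread of points has no meaning. The ZNF median lies above the median of other genes in each list, by the most in the MEG3 TFR1 and GATA6-AS TFR1 control lists.

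Just upstream of the ZNF71 start at 56595302, DNA was captured with log2 ratios of 3.29 for MEG3 TFR1, 2.23 for MEG3 TFR2 (56594501 to 56594850) and 2.92 for GATA6-AS TFR1 (56594601 to 56595050), so that every oligo passed 4-fold there, although no region reached the start itself. The highest GATA6-AS TFR1 value was at ZNF888, 3.35 or 10.2-fold, in 52923051 to 52923300 at the end of its RefSeq span, and a MEG3 TFR1 region beside it, at 52922251 to 52922900, had 2.28. ZNF28 was captured by MEG3 TFR1 at 2.96 and by MEG3 TFR2 at 3.08, in overlapping regions from 52820451 to 52821200, and a GATA6-AS TFR1 region of 1.63 lies elsewhere in the gene without its name. ZNF324 had the highest MEG3 TFR2 value, 3.19 or 9.11-fold, at 58469901 to 58470100, a MEG3 TFR1 region of 1.25 elsewhere in the gene, and by position a GATA6-AS TFR1 region of 1.51. ZNF83 had its highest value with GATA6-AS TFR1, 3.19 at 52601001 to 52601150, which lies outside the RefSeq gene, and 2.93 with MEG3 TFR2 at 52627201 to 52627350. Inside the ZNF83 gene the highest GATA6-AS TFR1 value was 1.65. ZNF333 and ZNF653 passed 8-fold with MEG3 TFR1, at 3.04 (14730401 to 14730600) and 3.01 (11504851 to 11505150). ZNF653 stayed at 1.63 or below with the other oligos, while ZNF333 is overlapped by regions that lack its name of 2.18 with MEG3 TFR2 (14730201 to 14730550) and 2.24 with GATA6-AS TFR1 (14689301 to 14689850). ZNF554 and ZNF440 likewise had 2.95 and 2.86 with MEG3 TFR1, where the ZNF440 region lies just upstream of the gene, which no captured region overlaps, and ZNF554 had 1 of 1.36 with GATA6-AS TFR1.

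The longest gene collected the most regions. ZNF536, a regulator of neuronal differentiation, is by far the longest member, at 30225592 to 30713586. It lies outside the clusters and held 25 captured regions with MEG3 TFR1, 10 with MEG3 TFR2 and 28 with GATA6-AS TFR1, with highest values of 2.68, 2.49 and 2.40. By name, ZNF83 had 9, 6 and 10, ZNF114 had 10, 1 and 8, and ZNF574 had 5, 5 and 7 in the same order. By RefSeq position, 7, 6 and 7 captured regions overlap ZNF83, 3, 0 and 2 overlap ZNF114, and 5, 4 and 6 overlap ZNF574. ZNF574 spans only 13.1 kb and its highest values were 2.18, 2.08 and 2.82. ZNF787 differed by oligo, with 4 captured regions for MEG3 TFR1, 10 for GATA6-AS TFR1 and none named for MEG3 TFR2, for which 2 unnamed regions of up to 1.32 lie in the gene. ZNF420, ZNF667 and ZNF582 were also named for a captured region of each oligo. The highest values were 2.13, 2.11 and 2.46 for ZNF420, 1.82, 1.86 and 1.99 for ZNF667, and 2.18, 1.78 and 2.02 for ZNF582. The GATA6-AS TFR1 region named for ZNF582, at 56378201 to 56378450, lies outside its RefSeq gene, which no captured region of that oligo overlaps.

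Control regions were most numerous at ZNF544, with 1, 2 and 6 in the order above, and at ZNF114 with 1, 1 and 5. The pseudogene ZNF826P had 2, 0 and 5, ZNF708 had 2, 0 and 4, and ZNF765 had 2, 1 and 3. None of the ZNF826P control regions overlaps its RefSeq gene, and of those of ZNF114 and ZNF708 1, 1 and 1 and 0, 0 and 1 do. Some control loci recurred with large values. At ZNF555, in 2857051 to 2857350, the log2 ratio was -3.55 with MEG3 TFR1, -1.52 with MEG3 TFR2 and -3.01 with GATA6-AS TFR1. At ZNF490 in 12606501 to 12606850 it was -2.32, -2.58 and -2.04, and just upstream of ZNF432 in 52051201 to 52051400 it was -1.96, -2.08 and -2.41. At a locus named for ZNF675, in 23563651 to 23563850, it was -2.09, -1.84 and -2.82. This locus lies well beyond the end of the RefSeq gene, which is on the minus strand at 23652801 to 23687212. ZNF536, captured so often, also held a control locus at 30566251 to 30566500 with -1.86, -1.57 and -2.34. Since these lists share the no oligo libraries, a locus in all 3 of them was not seen 3 independent times.

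**Figure D3:**
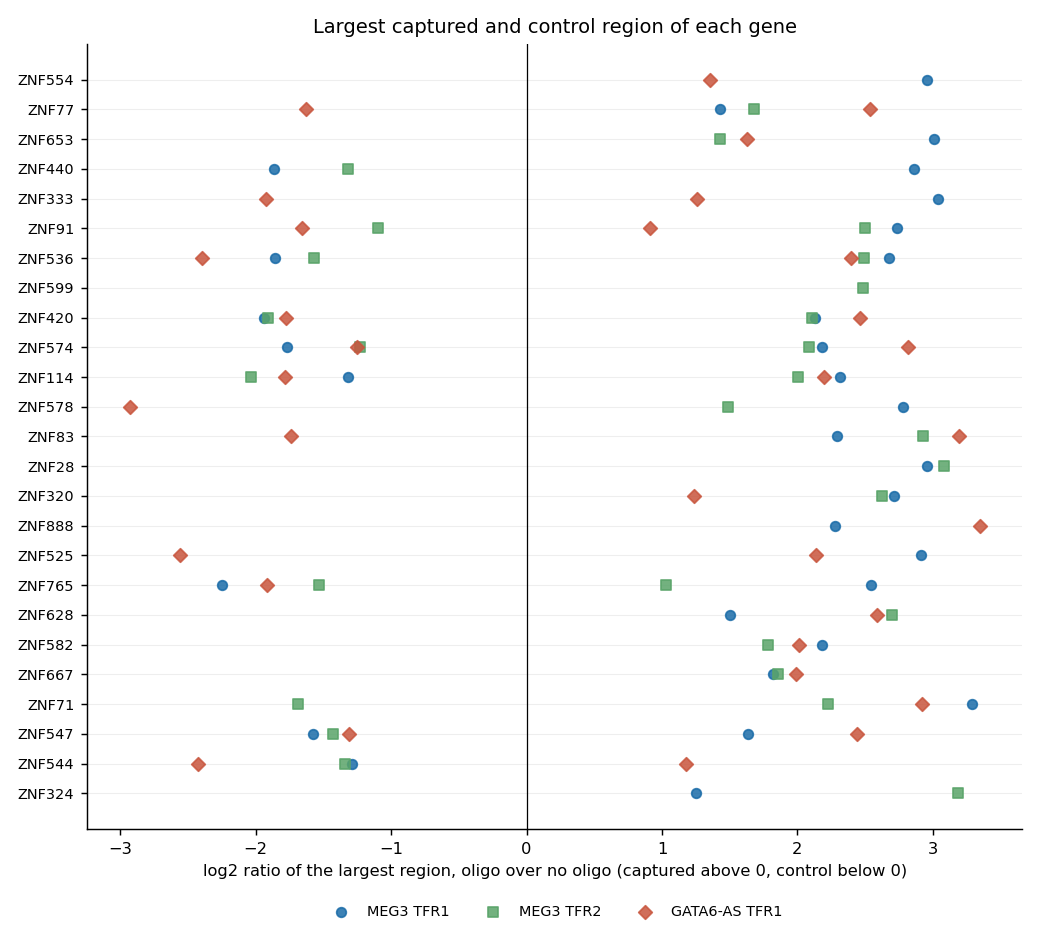
Log2 ratio of the largest captured region (right of 0) and the largest control region (left of 0) for each ZNF gene named for one of the highest captured values or for its presence in each captured or each control list, in chromosome order from the top, with circles for MEG3 TFR1, squares for MEG3 TFR2 and diamonds for GATA6-AS TFR1. A missing symbol means that no region of that list carries the name, though an unnamed one may overlap the gene. By name, ZNF71 and ZNF83 have high values with every oligo. The ZNF71 values lie upstream of the gene, and the ZNF83 value with GATA6-AS TFR1 lies outside its RefSeq gene. ZNF536, ZNF574, ZNF420, ZNF114 and ZNF765 have symbols on both sides for each oligo except ZNF765 with GATA6-AS TFR1.

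Members were also read by what they are known for, in lists chosen with earlier results of these data known. Of 7 KRAB factors linked to transposons, 4 had a captured region with MEG3 TFR1, 5 with MEG3 TFR2 and 3 with GATA6-AS TFR1, against the background shares of 43.4%, 40.4% and 57.1% of genes given above. By position the captured counts were 4, 5 and 5, against 70.9%, 64.6% and 81.5% of genes. Control regions were named for 1, 2 and 2 of the 7, against 12%, 10.8% and 22.5% of genes. By position the control counts were 2, 2 and 4, against 12.8%, 11.2% and 27.6%. With lists this short, such counts place no member apart. ZNF91, which represses SVA elements, had 2.74 with MEG3 TFR1 at 23325951 to 23326200, 2.496 with MEG3 TFR2 at 23325851 to 23326050 and 0.91 with GATA6-AS TFR1 at another place. ZNF93, which represses a LINE-1 subfamily, had a MEG3 TFR2 region of 1.52 and, by name or position, no other. ZNF765 had 2.54 with MEG3 TFR1 at 53395651 to 53396400 and a control region of -2.25 just beyond it, at 53396651 to 53396900. ZNF808 had 2.15 with MEG3 TFR1 and 2.13 with MEG3 TFR2, in overlapping regions at 52528401 to 52529350, and by position GATA6-AS TFR1 regions of up to 1.40. ZNF611 had 2.23 (MEG3 TFR1) and 1.42 (GATA6-AS TFR1), ZNF649 2.32 with MEG3 TFR2 and, by position, 1.3996 with GATA6-AS TFR1, and ZNF534 had a GATA6-AS TFR1 region of 1.80 and no other. By position, ZNF91, ZNF611 and ZNF808 also held GATA6-AS TFR1 control regions, the largest of -1.66, -1.74 and -2.17.

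Of 8 genes whose promoters are known to gain methylation in tumours, 3, 2 and 3 had a captured region in the order above, against the same 43.4%, 40.4% and 57.1% of genes, and 2, 3 and 3 a control region, against 12%, 10.8% and 22.5%. By position the captured counts were 7, 3 and 3, against 70.9%, 64.6% and 81.5% of genes by position, and the control counts 3, 3 and 4, against 12.8%, 11.2% and 27.6%. ZNF582 was named for a captured region of each oligo, as given above, but by position only the MEG3 oligos had one in the gene. ZNF132 was captured at 1.70, 1.28 and 1.51 just upstream of the gene and had a control locus within the gene, at 58434901 to 58435450, of -1.28, -1.51 and -1.09. ZNF331, an imprinted gene, was named only in control lists, at -1.36 with MEG3 TFR2 and -1.60 with GATA6-AS TFR1. By position, captured regions of 1.75 with MEG3 TFR1, 1.12 with MEG3 TFR2 and up to 1.27 with GATA6-AS TFR1 lie in the gene. ZNF382 had control regions of -1.36, -1.81 and -1.57 and, by name or position, no captured one. ZNF154 had 1 captured region of 1.27 with MEG3 TFR1, ZNF135 1 of 0.80 with GATA6-AS TFR1, and no region was named for ZNF177 or ZNF671. By position, ZNF177 held captured regions of up to 1.83 (MEG3 TFR1) or 2.03 (GATA6-AS TFR1), and ZNF671 held captured regions of up to 1.44, 1.75 and 1.93 with the 3 oligos. ZNF671 also held control regions, of -0.81 with MEG3 TFR1 and up to -2.33 in size with GATA6-AS TFR1. ZNF135 held a MEG3 TFR1 region of 1.201, while the GATA6-AS TFR1 region with its name, at 58086101 to 58086900, lies outside the RefSeq gene.

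Of 10 other studied members, 5, 4 and 6 had a captured region and 2, 1 and 3 a control region, near the shares by name over all genes given above. By position the captured counts were 6, 5 and 7, below the 70.9%, 64.6% and 81.5% of all genes by position. The control counts by position were 2, 2 and 4, against 12.8%, 11.2% and 27.6%. ZNF274, which recruits SETDB1 to the ends of zinc finger genes, was named for 3 GATA6-AS TFR1 regions with a highest value of 1.3999 at 58182601 to 58183300, over its start. By position it also held 3 MEG3 TFR1 and 5 MEG3 TFR2 regions, of up to 1.75 and 1.63. ZNF296 had 4 GATA6-AS TFR1 regions of up to 1.61 and ZNF146 had 3 of up to 1.41, and neither had a region with a MEG3 oligo by name or position. ZNF473, which takes part in histone pre-mRNA processing, was named for 4 MEG3 TFR1 regions of up to 1.26 and 3 MEG3 TFR2 regions of up to 1.63, and by position held a GATA6-AS TFR1 region of 1.82. ZNF568 had 1.29, 2.40 and 2.19, ZNF224 had 1.52 and 2.36 with the MEG3 oligos, and ZNF350, a partner of BRCA1, had 2.00 with MEG3 TFR1, and 0.88 in a GATA6-AS TFR1 region. ZNF260 stood in control lists only, at -2.58 (MEG3 TFR1) and -2.98 (GATA6-AS TFR1) at the same 36522601 to 36522750. ZNF507 was named for no region, and by position held control regions of -1.98 with MEG3 TFR2 and -2.55 with GATA6-AS TFR1.

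By position, 226 of the 246 protein-coding members fell into 12 clusters, defined as at least 5 ZNF genes with gaps of at most 250 kb, which span 12.2 Mb in all. The clusters held 9.20%, 9.75% and 7.52% of all captured regions of chromosome 19 and 18.0%, 14.5% and 19.6% of the control regions of the 3 oligos. The clusters' share of the chromosome's DNA was not computed, so these values do not show an excess in either list. Captured density differed strongly between clusters. The cluster from ZNF737 to ZNF91, at 20530276 to 23395471 with 25 genes, had 13.6, 16.8 and 17.8 captured regions of any kind per Mb. The cluster from ZNF565 to ZNF573, at 36182060 to 37779586 with 26 genes, had 20.0, 13.1 and 23.8. At the other end, the short cluster from ZNF628 to ZNF580, at 55476617 to 55645623 with 7 genes, had 201, 118 and 402 per Mb, but ZNF genes fill only 24.6% of it. Between them, the cluster from ZNF175 to ZNF331, at 51571283 to 53580269 with 39 genes, had 57.7, 35.3 and 52.8 per Mb, and the cluster from ZNF264 to ZNF446, at 57191500 to 58489533 with 43 genes, had 56.2, 46.2 and 70.9. The order of oligos was not the same throughout. GATA6-AS TFR1, which had the longest list, led in 11 clusters, and in the ZNF175 to ZNF331 cluster MEG3 TFR1 led with 116 captured regions against 106, of which 59 and 39 were ZNF-named. In the ZNF737 to ZNF91 cluster, which holds ZNF91, GATA6-AS TFR1 had 14 ZNF-named captured and 21 ZNF-named control regions, and in the ZNF565 to ZNF573 cluster it had 20 of each.

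**Figure D4:**
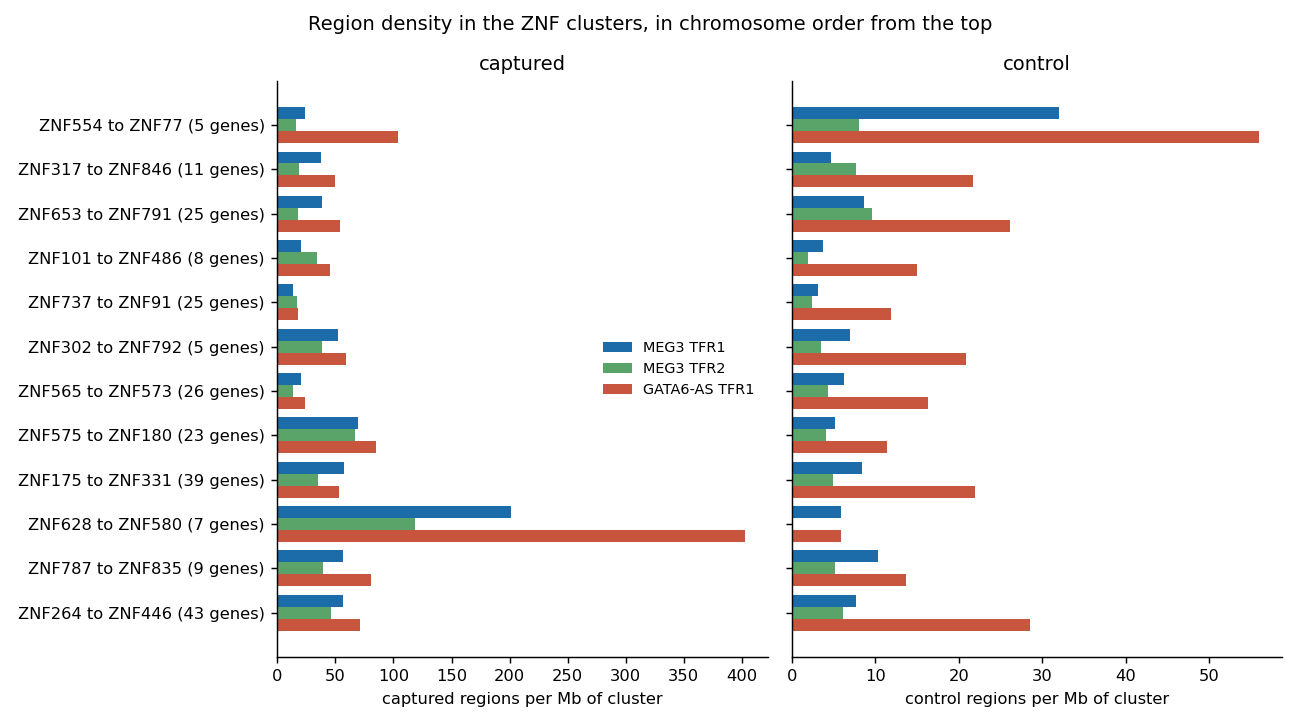
Captured (left) and control (right) regions of any name per Mb of each ZNF gene cluster, in chromosome order from the top, by oligo; the 2 axes have different scales. The ZNF628 to ZNF580 cluster has the highest captured densities, 118 to 402 per Mb, and the ZNF554 to ZNF77 cluster, 0.125 Mb long, the highest control densities with MEG3 TFR1 and GATA6-AS TFR1, 32.0 and 56.0 per Mb.

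Within the genes, captured regions lay towards the start. The first 20% of the gene held 29.2%, 27.8% and 30.6% of captured regions in ZNF genes with the 3 oligos, against 21.5%, 19.5% and 22.0% in other genes. The final 20%, where the long exon with the zinc fingers lies in most members, held 12.4%, 20.5% and 12.4% against 20.3%, 22.1% and 24.8%. A start is listed for 216 of the ZNF genes and 969 of the others. Of ZNF-named captured regions, 29 of 180 (16.1%, 95% Wilson interval 11.5 to 22.2%) lay within 1 kb of a start with MEG3 TFR1, 7 of 118 (5.93%, 2.90 to 11.7%) with MEG3 TFR2 and 47 of 238 (19.7%, 15.2 to 25.3%) with GATA6-AS TFR1, against 9.81%, 10.3% and 14.2% of regions of other genes. Within 5 kb the shares were 37.2%, 42.4% and 40.8% against 29.6%, 31.9% and 33.2%, which turns the order for MEG3 TFR2. Counted by gene, a captured region within 1 kb of the start was present in 50 ZNF genes (23.1%) with MEG3 TFR1, against 36.2% of all protein-coding genes with a listed start, in 17 (7.87%) with MEG3 TFR2 against 27.2%, and in 80 (37.0%) with GATA6-AS TFR1 against 66.7%. Control regions within 1 kb of a start occurred at 2, 2 and 7 ZNF genes (0.93%, 0.93% and 3.24%), close to the 1.44%, 1.65% and 3.30% of other genes.

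In the ZNF175 to ZNF331 cluster, 17 of the 116 MEG3 TFR1 captured regions lay at a similar distance behind the starts of 16 genes. The window of 500 to 1500 bp after the start was chosen after this had been seen, so the counts are a description with no test. Of the 32 genes of this cluster with a listed start, 16 (50.0%, 33.6 to 66.4%) had a MEG3 TFR1 captured region whose midpoint fell in that window, and 3 (9.38%, 3.24 to 24.2%) had one in the same window before the start. The share over all protein-coding genes of the chromosome was 18.5%. Among the 184 other ZNF genes it was 15 (8.15%) after and 13 (7.07%) before the start, and among the 969 other genes 188 (19.4%) and 173 (17.9%). In the same cluster MEG3 TFR2 had a region after the start in 5 genes (15.6%, against 15.4% of all genes) and GATA6-AS TFR1 in 4 (12.5%, against 34.7%). GATA6-AS TFR1 had regions in the 500 bp before the start in 8 of the 32 genes (25.0%) and in the 500 bp after it in 7 (21.9%). These shares were near the 23.7% and 28.1% of the 969 other genes but above the 10.3% and 11.4% of the 184 other ZNF genes. By share, the small ZNF302 to ZNF792 cluster equalled it with MEG3 TFR1, with 2 of 4 genes, and the ZNF628 to ZNF580 cluster had 2 of 6. The ZNF264 to ZNF446 cluster had 6 of 40, and the other clusters 0 to 2 genes each.

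The 17 MEG3 TFR1 regions behind the 16 starts had midpoints 651.5 to 1207.5 bp after the start, with a median of 904.5 bp, widths of 250 to 1150 bp with a median of 750 bp, and log2 ratios of 0.89 to 2.92 with a median of 1.97, which is 3.91-fold. The highest were at ZNF525 (2.92, 53366551 to 53367050) and ZNF765 (2.54), followed by a region of ZNF83 (2.29) and that of ZNF611 (2.23). The lowest were at ZNF528 (0.89) and ZNF761 (0.95). ZNF160, ZNF347, ZNF415, ZNF468, ZNF616, ZNF701, ZNF766, ZNF808, ZNF836 and ZNF845 made up the rest, between 1.31 and 2.15. Only regions of at least 1.5 left 12 genes, and any midpoint within 2 kb after the start gave 18. At 5 of these genes MEG3 TFR2 also had a region after the start, with log2 ratios of 1.73 at ZNF347, 1.11 at ZNF415, 1.47 at ZNF766, 2.13 at ZNF808 and 1.86 at ZNF836, where MEG3 TFR1 had 1.98, 1.69, 1.97, 2.15 and 2.07. ZNF616 and ZNF845 also had a GATA6-AS TFR1 region after the start, of 1.415 and 2.14, where MEG3 TFR1 had 2.03 and 1.35. The 16 genes are relatives by tandem duplication, and the part of shared sequence in the count was not tested.

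**Figure D5:**
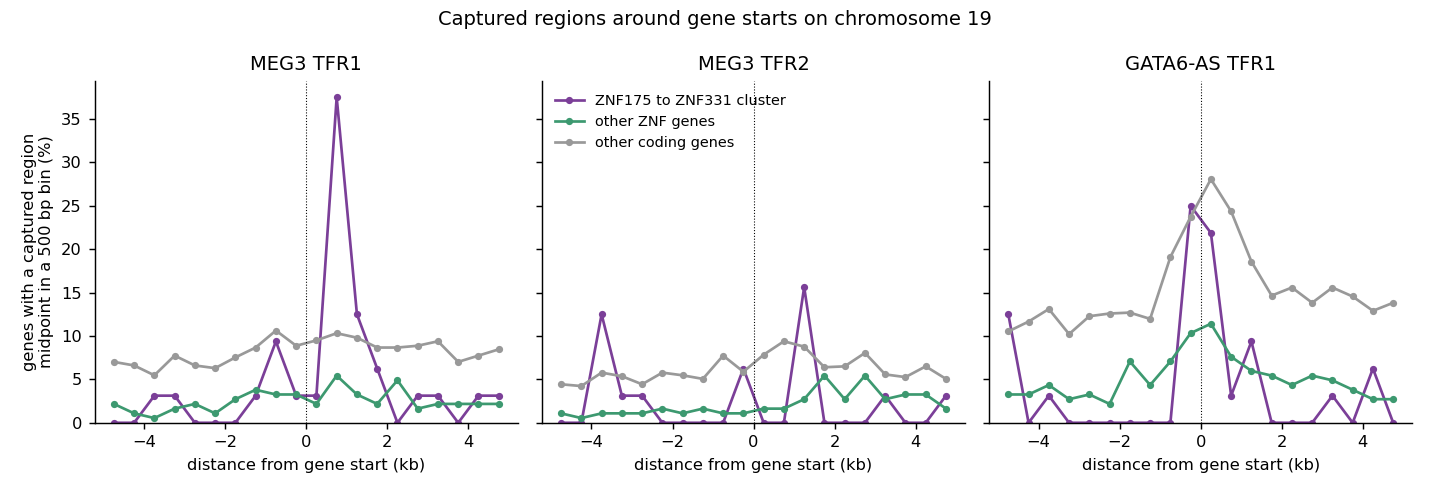
Percentage of genes with a captured region whose midpoint lies in each 500 bp bin from 5 kb before to 5 kb after a listed start (0), for the 32 genes of the ZNF175 to ZNF331 cluster, 184 other ZNF genes and 969 other protein-coding genes of chromosome 19. With MEG3 TFR1 the cluster reaches 37.5% between 500 and 1000 bp after the start, against 10.3% of other protein-coding genes and 5.43% of other ZNF genes. Its GATA6-AS TFR1 share of 25.0% just before the start is near the 23.7% of other protein-coding genes and above the 10.3% of other ZNF genes.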

How the data were processed

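Biotin-oligo captures of H1 genomic DNA were sequenced in 8 libraries of 4 groups. The build hg38 and the tools BWA 0.7.15-r1140 and FastQC are those of the submitters' processing notes. For the region caller, its thresholds and the scaling, the sources used here give no name. The authors deposited 6 lists of regions with gene names and 1 log2 value per region, oligo over no oligo, pooled over the 2 libraries of a group. Input DNA was not analysed here.

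Positions are printed from 1. Names marked (+) or (-) were taken as neighbours and left out, which left out 361 regions with a ZNF name of that kind alone. Genes and promoters came from RefSeq tables of GRCh38.p14; all 197 ZNF names and 75.1% of 1669 plain names matched. The tables list no strand or start for some genes, and exons were not used. Shares have 95% Wilson intervals, densities Poisson intervals and medians order-statistic intervals, all for counting error only. With no value per library there was no test, and per-library depth is unknown. Planned overlaps between oligos are not reported because all comparisons share the no oligo libraries.

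Genes named were, per oligo, the 8 with the highest captured value, the 5 with the most captured and the 5 with the most control regions, up to 8 captured by each oligo, up to 5 in each control list, and the members of the 3 role lists; regions that overlap these genes by RefSeq position, loci shown side by side, promoters and the genes behind the starts were added. The members and lists were chosen with earlier results of these data known. Alternatives were a log2 size of at least 1.5, joining within 200 bp, RefSeq overlap, all names ZNF, 5 kb flanks or start windows, regions of at most 350 bp and cluster gaps of 500 kb. The interval and share functions were tested on simulated data. Python 3.11.15, numpy 2.4.6, pandas 2.3.3, scipy 1.17.1 and matplotlib 3.10.9 were used.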

Additional observations from a re-analysis of the deposited data

How the results depend on the processing

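Of 79 values recomputed under another setting, 40 stayed within their counting interval, or for counts of genes or clusters within 1.5 times, 39 moved and none changed sign. The control share of ZNF regions stayed above the captured share in all 15 pairs of setting and oligo, by 2.33 to 5.69 times. Values below are in the order MEG3 TFR1, MEG3 TFR2, GATA6-AS TFR1.

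With only regions of at least 1.5 in log2 size, the captured share was 9.41% and 9.10% for the MEG3 oligos and the control share 28.9%, 22.6% and 29.6%. The same setting left 53 MEG3 TFR2 and 60 GATA6-AS TFR1 captured genes, 16 MEG3 TFR2 control genes, 20.2, 16.8 and 15.8 captured and 3.84, 2.27 and 12.6 control regions per Mb of ZNF gene. It gave captured medians of 1.89, 1.90 and 1.87 and control medians of -2.00, -1.75 and -1.82, as a cut on the value itself must. Behind the starts of the ZNF175 to ZNF331 cluster it left 3 genes with MEG3 TFR2 and 1 with GATA6-AS TFR1, while a window of 2 kb gave 10 with GATA6-AS TFR1; both were chosen after seeing the data. Counting only regions whose names are all ZNF gave captured shares of 6.23%, 5.22% and 3.85% and control shares of 12.1% with MEG3 TFR2 and 16.5% with GATA6-AS TFR1. Flanks of 5 kb gave 152, 152 and 184 captured genes and 117 GATA6-AS TFR1 control genes. Regions of at most 350 bp gave a GATA6-AS TFR1 captured median of 1.44. A start window of 5 kb gave 37.2%, 42.4% and 40.8% of captured and 31.8%, 34.4% and 24.8% of control regions. Gaps of 500 kb gave 10 clusters.

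No paired analysis was possible because the lists hold no value per library, and for the same reason leaving out a library was not done. The planned change of the overlap between oligos was not run. The unknown depth and spread between libraries limit every value, and reads shared by near-identical genes limit which gene a region is credited to.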
